A study of Mus musculus with 27 samples.

Results

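The ID genes and the E-protein genes of mouse B cells are described here across every condition of the study. The 6 genes, Id1, Id2, Id3, Tcf3, Tcf4 and Tcf12, were taken by symbol from the 35604 genes of the deposited table, and all 6 were among the 12147 genes that reached 1 TPM in at least 3 libraries and were tested. TPM is a unit of transcript abundance corrected for transcript length and library size. The fourth ID gene, Id4, lay between 0 and 0.275 TPM and was not tested. Naive B cells were isolated from spleens of wild-type mice and either left uncultured (naive, 0 h) or cultured with the anti-CD40 antibody HM40-3 at 1 µg/mL, which stands in for the CD40 signal from helper T cells. Cultures held anti-CD40 alone, anti-CD40 with the T cell cytokine IL-4 at 12.5 ng/mL, with the T cell cytokine IL-21 at 50 ng/mL, or with both, for 6 h or 24 h. This gave 9 groups of 3 libraries of polyadenylated RNA, and every cultured group received anti-CD40. The design was set up to examine what IL-21 does to B cells directly. No label says that the 3 libraries of a group came from separate animals or cultures, so p-values measure only the spread between these libraries.

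E-proteins are basic helix-loop-helix transcription factors that bind E-box sequences as dimers and drive the B cell lineage from its earliest stages. ID proteins share the helix-loop-helix dimerization domain but lack the basic region that contacts DNA, so an E-protein bound by an ID protein cannot occupy its sites. The balance between both families is known to set thresholds in lymphocyte development and activation, and Id2 is in addition best known as a regulator of innate lymphoid cells, natural killer (NK) cells and dendritic cells.

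The libraries carried B cell RNA: all 8 B cell markers were detected, with summed levels of 523 to 5989 TPM. Markers of NK and innate lymphoid cells summed to 0.201 to 4.09 TPM, and those of neutrophils stayed under 1 TPM in every library. The 8 T cell markers summed to 8.59 to 94.7 TPM. Their sums were 74.2 to 94.7 TPM with both cytokines at 24 h and 26.5 to 77.9 TPM with IL-4 at 24 h. Of the 3 tested, 2 were called higher when IL-21 was added to IL-4 at 24 h, and their part in the results was not tested. Most of the T cell marker sum with both cytokines at 24 h came from Thy1, whose levels are given at the end beside those of Cd3e. Naive libraries held more erythroid and platelet RNA (1012 to 1797 TPM against 11.3 to 245 TPM in culture) and more macrophage RNA (54.9 to 75.7 TPM against 0.563 to 10.3 TPM). Any comparison with naive cells therefore moves with these markers, and with culture itself, and their part in the results was not tested. Erythroid and platelet RNA also differed between the times, at 103 to 245 TPM at 6 h and 11.3 to 47.9 TPM at 24 h. In every culture 6 of these 8 markers were called lower at 24 h than at 6 h. Comparisons between the times move with them too, and their part there was not tested either. Mitochondrial transcripts took 5.50 to 13.5% of the listed TPM. Naive replicate 1, at 5.50%, and the first 24 h library with anti-CD40 and IL-4, at 7.89%, had lower shares than the other 2 libraries of their groups, and leaving out this pair was 1 of the alternatives. At 6 h, replicate 3 with IL-4 (6.91%) and replicate 3 with IL-21 (7.27%) were also lower than the rest of their groups. These 2 were left out only singly, like every library. In bulk RNA, fewer cells of a type and less RNA per cell cannot be told apart. The depth of the libraries is unknown.

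Changes below are log2 differences of TPM + 1 ± SE from a fit over all 27 libraries, and "called" means an adjusted p below 0.05. Levels with an error are mean ± SD of n = 3 libraries. Added to anti-CD40, IL-21 called 2 of the 6 genes at 6 h (12.1% of all tested genes were called) and 2 at 24 h (24.2% of all). Added to anti-CD40 and IL-4, it called 2 at 6 h (2.54% of all) and 3 at 24 h (24.2% of all). IL-4 added to anti-CD40 called 3 at 6 h (4.04% of all) and 5 at 24 h (31.4% of all). Against naive cells, anti-CD40 called 1 at 6 h (29.9% of all) and 2 at 24 h (26.8% of all). Between 6 h and 24 h, 4 members were called with anti-CD40 (24.3% of all), 3 with IL-4 (25.4% of all), 3 with IL-21 (35.5% of all) and 4 with both (30.2% of all). At 24 h and between the times the shares of all genes called were large, so the number of members called there says little by itself. These comparisons share libraries: the groups with anti-CD40 alone serve 4 of them each, and the groups with IL-4 are treated when IL-4 is compared but control when IL-21 is added to IL-4.

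**Figure D1:**
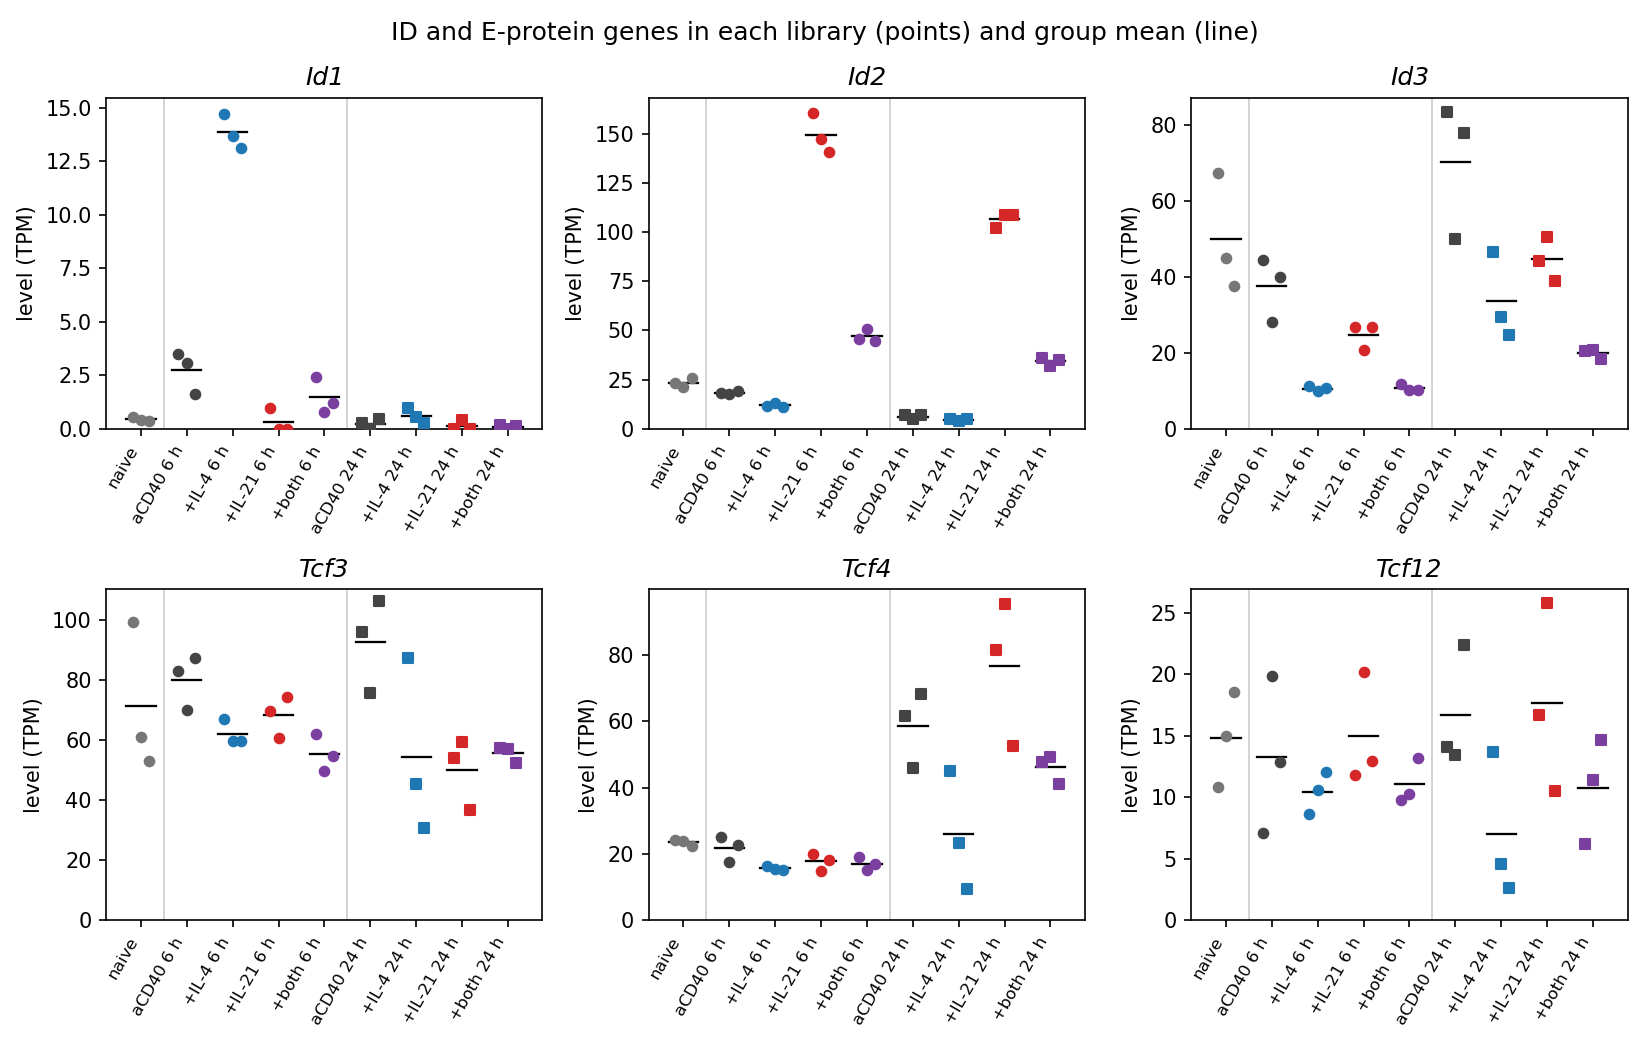
Levels of the 6 genes in TPM (vertical axes, linear, each from 0) in the 27 libraries by group (horizontal axis); points are libraries (circles naive and 6 h, squares 24 h), lines are group means, aCD40 is anti-CD40 and "both" is IL-4 with IL-21. Id2 is highest in the libraries with IL-21 (141 to 160.3 TPM at 6 h), Id1 stands out in 1 group only (13.1 to 14.7 TPM with IL-4 at 6 h), and the 3 libraries with IL-4 at 24 h are widely spread for Tcf3, Tcf4 and Tcf12.

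Id2 encodes an ID protein and lies on the minus strand of chromosome 12 (GRCm38 chr12:25093799-25097140). It was the member with the largest rise with IL-21, at both times and with or without IL-4, although with IL-4 at 6 h the fall of Id1 was larger than the rise of Id2. With anti-CD40 alone for 6 h, Id2 stood at 18.1, 17.9 and 19.3 TPM, and with IL-21 it stood at 160.3, 147 and 141 TPM. The ranges did not come near each other. Id2 rose 8.10-fold by the ratio of group means, a log2 change of 2.95 ± 0.13 (adjusted p = 3.99e-13). At 24 h its level with anti-CD40 alone had dropped to 6.83, 5.11 and 6.82 TPM, while with IL-21 it was 102, 109 and 109 TPM. The rise at 24 h was 17.0-fold, or 3.90 ± 0.13 on the log2 scale (adjusted p = 1.95e-15). The larger fold at 24 h thus went with a lower level in the control cells, since the level with IL-21 itself was lower at 24 h than at 6 h (-0.48 ± 0.13, adjusted p = 0.00600). The IL-21 effect on Id2 grew from 6 h to 24 h by 0.95 ± 0.18 (adjusted p = 0.00283). Positive differences of this kind were called for 2 of the 6 genes, against 3.1% of all tested genes, and the other was Id1, whose negative effect at 6 h was no longer called at 24 h. That call ended when libraries were rescaled by the median of ratios (0.78, adjusted p = 0.0527), and over the 16 alternatives the adjusted p ran from 0.000731 to 0.0527.

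With IL-4 present, Id2 also rose with IL-21, but less. At 6 h the libraries with anti-CD40 and IL-4 held 11.8, 13.1 and 11.1 TPM, and those with both cytokines held 45.5, 50.7 and 44.9 TPM. Every library with both cytokines was above every one without IL-21 and below every one with IL-21 but no IL-4. The rise was 3.92-fold (1.89 ± 0.13, adjusted p = 2.80e-09). At 24 h the levels were 4.81, 4.03 and 4.98 TPM with IL-4 and 36.1, 31.7 and 35.1 TPM with both, a 7.45-fold rise (2.66 ± 0.13, adjusted p = 3.23e-12). The interaction of both cytokines, which asks whether the IL-21 effect differed with and without IL-4, was -1.06 ± 0.18 at 6 h (adjusted p = 0.00671) and -1.24 ± 0.18 at 24 h (adjusted p = 0.000210). Id2 was the only member called for the interaction in either case, against 0.412% of all tested genes at 6 h and 5.80% at 24 h. Both interactions were called in every alternative run, with adjusted p-values up to 0.0456 at 6 h and 0.00119 at 24 h. With IL-4 the growth of the effect from 6 h to 24 h was 0.77 ± 0.18 (adjusted p = 0.0178; positive differences were called for Id2 and, again from a negative effect at 6 h, for Id1, against 3.66% of all genes). That call ended in 5 of 17 alternatives, whose adjusted p ran from 0.00231 to 0.431. They were rescaling (0.34, adjusted p = 0.431) and leaving out replicate 2 with IL-4 at 24 h (adjusted p = 0.0662) or at 6 h (adjusted p = 0.0555), or, with both cytokines, replicate 1 at 24 h (adjusted p = 0.0506) or replicate 3 at 6 h (adjusted p = 0.0547).

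Without IL-21, Id2 was lower with time and with IL-4. Naive cells held 23.5, 21.2 and 25.8 TPM. After 6 h of anti-CD40 the change from naive was -0.33 ± 0.13 (adjusted p = 0.0622), and after 24 h Id2 had fallen by 1.76 ± 0.13 (adjusted p = 1.28e-09), to 0.266 of the naive mean. The change at 6 h was called after rescaling (-0.48, adjusted p = 0.0272), without a filter (adjusted p = 0.0367) and without naive replicate 2 (adjusted p = 0.04965). The highest of its 11 alternatives was 0.216. IL-4 lowered Id2 at 6 h, to 0.650 of the level with anti-CD40 alone (-0.58 ± 0.13, adjusted p = 0.00755). This call ended without replicate 3 of the group with IL-4 at 6 h (adjusted p = 0.0556, the highest of 10 alternatives that began at 0.00206). At 24 h the IL-4 effect was -0.37 ± 0.13 (adjusted p = 0.0365), but it was 0.026 after rescaling (adjusted p = 0.934, with 0.0104 the lowest of the 11 alternatives), so its direction depends on the scaling. The call also ended without anti-CD40 replicate 1 (adjusted p = 0.136) or 3 (adjusted p = 0.148) or IL-4 replicate 2 (adjusted p = 0.168). In order of level, the 9 groups ran from IL-21 at 6 h (149 ± 9.97 TPM), IL-21 at 24 h (107 ± 3.79), both cytokines at 6 h (47.0 ± 3.21) and both at 24 h (34.3 ± 2.30) to naive (23.5 ± 2.32), anti-CD40 at 6 h (18.4 ± 0.768), IL-4 at 6 h (12.0 ± 1.01), anti-CD40 at 24 h (6.25 ± 0.987) and IL-4 at 24 h (4.60 ± 0.505). No pair of neighbours in this order overlapped between libraries. The 4 groups with IL-21 were the 4 highest. NK and innate lymphoid markers were near 0 in the same libraries: with IL-21 at 6 h the 7 markers summed to 0.612 to 2.23 TPM, Gzma and Ncr1 reached at most 0.283 and 0.409 TPM, Klrb1c was listed at 0, and the highest single value was 1.28 TPM of Eomes in replicate 2. Of 6 conventional dendritic cell markers, 2 were tested. Itgax rose with IL-21 at 24 h, from 0.0623 to 0.287 TPM to 2.20 to 3.89 TPM (1.71 ± 0.20, adjusted p = 1.67e-06), and Zbtb46 was not called. The 6 summed to 5.20 to 7.72 TPM with IL-21 at 24 h against 2.48 to 4.86 TPM without it, and to 6.05 to 6.80 TPM against 7.05 to 8.19 TPM at 6 h. Clec9a, Xcr1 and Clec10a were listed at 0 in all 3 libraries with IL-21 at 24 h. The part of these cells in the Id2 result was not tested.

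Because Id2 was the member that rose most with IL-21, the RefSeq promoter window of Id2 (GRCm38.p6, chr12:25096043-25096342, minus strand) was searched on both strands. The letters searched were the sites of E-proteins, STAT factors, EGR factors and SMAD factors, all of which are known regulators or partners of ID genes. Windows were at hand for 4 of the 6 genes, Id2, Id3, Tcf3 and Tcf12. A pair of matches was present in the Id2 window, each shown 5′ to 3′ on the strand of the gene with the matched letters in capitals.
Id2 GC box: gccccctgGGCGCCcagcgcac
Id2 E-box: tgccacccCAGCTGggctctcg
The first holds GGCGCC, a GC box bound by SMAD proteins downstream of bone morphogenetic proteins (BMP). It lies at chr12:25096310-25096331, 231 bases before the start, and 11.9% of 32851 promoter windows hold these letters. The second holds an E-box of the general form CANNTG and lies at chr12:25096275-25096296, 196 bases before the start, and 72.3% of windows hold some E-box. Both stretches fall in an intron of the longest annotated Id2 transcript, which begins further upstream. The Id2 and Id3 windows hold no TTCNNNGAA (8.30% of windows), no STAT site with 1 base more in its gap (6.95%) and no CACCTG or CAGGTG (20.2%). In the Tcf3 window 1 E-box was found, here shown as it is the only match in the promoter of that E-protein gene.
Tcf3 E-box: ggcgtggtCACTTGggggcgtg
It lies at chr10:80433676-80433697, 54 bases before the start. The 3 Tcf12 windows also held E-boxes of the form CANNTG, which are not shown, and the Id3 window held none of the letters searched. No window at hand held an EGR site (0.612% of all windows) or the SMAD palindrome GTCTAGAC (0.213%). A match describes these letters only and is not evidence of binding.

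Id1 encodes an ID protein that is a classical target of BMP signalling (plus strand, chr2:152736251-152737410). It was nearly silent in naive B cells, at 0.552, 0.411 and 0.369 TPM. It appeared at 6 h and was strongest with IL-4. Anti-CD40 alone for 6 h gave 3.49, 3.09 and 1.63 TPM, above every naive library (1.34 ± 0.27, adjusted p = 0.000602). IL-4 took it to 14.7, 13.7 and 13.1 TPM, again without overlap, a 5.07-fold rise over anti-CD40 alone (2.03 ± 0.27, adjusted p = 3.09e-05). On a scale with a pseudocount of 0.1 TPM in place of 1 TPM the change was 2.37 and was not called (adjusted p = 0.138, the highest of 10 alternatives that began at 9.09e-06). IL-21 moved Id1 the other way. With anti-CD40 and IL-21 at 6 h, Id1 was at 0.958 TPM in replicate 1 and listed at 0 in the others, all below the control libraries (-1.54 ± 0.27, adjusted p = 0.000486). That difference depends on the pseudocount and is not a fold change. With IL-4 present, the libraries given IL-21 held 2.43, 0.799 and 1.22 TPM against 13.1 to 14.7 TPM without it. Id1 fell there to 0.107 of the level without IL-21 (-2.63 ± 0.27, adjusted p = 1.28e-06). The interaction at 6 h was -1.09 ± 0.39 (adjusted p = 0.369), so a different IL-21 effect with IL-4 was not shown, and it was 0.35 with a pseudocount of 0.1 TPM.

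By 24 h Id1 was under 1 TPM in all 12 cultured libraries. Anti-CD40 alone gave 0.295 TPM, a value listed at 0, and 0.453 TPM. IL-4 gave 0.975, 0.559 and 0.283 TPM, IL-21 gave 0.432 TPM in replicate 2 and values listed at 0 in the others, and both cytokines gave 0.166 TPM, a value listed at 0, and 0.131 TPM. No effect of a cytokine was called at 24 h, where the IL-4 effect was 0.36 ± 0.27 (adjusted p = 0.345). The falls from 6 h to 24 h were called with anti-CD40 alone (-1.56 ± 0.27, adjusted p = 0.000250), with IL-4 (-3.23 ± 0.27, adjusted p = 1.74e-08) and with both (-1.12 ± 0.27, adjusted p = 0.00322). The change of the IL-21 effect between the times was 1.41 ± 0.39 with anti-CD40 (adjusted p = 0.0385) and 2.11 ± 0.39 with IL-4 (adjusted p = 0.00197). At 24 h the control level was already under 1 TPM. The first ended in 10 of 16 alternatives, with adjusted p-values of 0.00718 to 0.219. The second ended in 1 of 17, a pseudocount of 0.1 TPM (adjusted p = 0.487, with 0.000540 the lowest). In the order of groups only IL-4 at 6 h (13.9 ± 0.812 TPM) stood clear of the next, anti-CD40 at 6 h (2.73 ± 0.978 TPM), and all later neighbours overlapped.

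Id3 encodes the ID protein best known in B and T cells (plus strand, chr4:136143497-136145755), and unlike Id1 it was well expressed in naive cells, at 67.4, 45.1 and 37.6 TPM. IL-4 lowered it at both times. At 6 h anti-CD40 alone gave 44.5, 28.2 and 40.1 TPM and IL-4 gave 11.3, 9.85 and 10.8 TPM. These ranges were far apart, and Id3 fell to 0.283 of the control mean (-1.71 ± 0.24, adjusted p = 3.91e-05). At 24 h anti-CD40 alone gave 83.4, 50.0 and 77.8 TPM and IL-4 gave 46.5, 29.4 and 24.8 TPM, without overlap (-1.06 ± 0.24, adjusted p = 0.00165). After rescaling the fall at 24 h was -0.62 (adjusted p = 0.00126), and all 11 alternatives kept the call, with adjusted p-values of 2.99e-05 to 0.0164.

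IL-21 was the second cytokine that went with lower Id3. At 6 h its libraries held 26.9, 20.8 and 26.9 TPM, below all 3 with anti-CD40 alone, but the change of -0.56 ± 0.24 was not called (adjusted p = 0.136). At 24 h they held 44.3, 50.6 and 39.0 TPM, which overlaps the range of 50.0 to 83.4 TPM without IL-21 (-0.62 ± 0.24, adjusted p = 0.0597). After rescaling both were called, at -0.66 (adjusted p = 0.00156) and -0.87 (adjusted p = 5.38e-05), and over all alternatives the highest adjusted p was 0.402 at 6 h and 0.220 at 24 h. With IL-4 present, IL-21 left Id3 at 11.8, 10.4 and 10.2 TPM at 6 h against 9.85 to 11.3 TPM, and no difference was detected (0.02 ± 0.24, adjusted p = 0.997). At 24 h both cytokines gave 20.6, 20.9 and 18.5 TPM, below all 3 libraries with IL-4 alone (-0.67 ± 0.24, adjusted p = 0.0423). That call ended when any 1 of 5 of the 6 libraries was left out, among them IL-4 replicate 1 (-0.42, adjusted p = 0.148). It also ended without a filter on low levels (adjusted p = 0.0792) and without the pair of naive replicate 1 and IL-4 replicate 1 (adjusted p = 0.0973). The lowest of the 11 alternatives was 1.08e-06. From 6 h to 24 h Id3 rose in all 4 cultures, by 0.88 ± 0.24 with anti-CD40 (adjusted p = 0.00902), 1.52 ± 0.24 with IL-4 (adjusted p = 6.02e-05), 0.82 ± 0.24 with IL-21 (adjusted p = 0.00875) and 0.83 ± 0.24 with both (adjusted p = 0.00949). The call with anti-CD40 ended without its replicate 1 at 24 h (adjusted p = 0.0538) or replicate 2 at 6 h (adjusted p = 0.0686), and the call with IL-21 without its replicate 2 at 6 h (adjusted p = 0.0503). Id2 fell with time in each culture, by 0.44 with both cytokines (adjusted p = 0.0126). Leaving out replicate 2 at 24 h (adjusted p = 0.0627) or at 6 h (adjusted p = 0.0661) ended the last of these calls. Against naive cells, Id3 differed by -0.38 ± 0.24 at 6 h with anti-CD40 (adjusted p = 0.247) and by 0.49 ± 0.24 at 24 h (adjusted p = 0.128). The first was called after rescaling (-0.54, adjusted p = 0.00330, in a range up to 0.714). The second was called without naive replicate 1 (0.72, adjusted p = 0.0277), anti-CD40 replicate 2 (adjusted p = 0.0367) or the pair with low mitochondrial shares (adjusted p = 0.00798), in a range up to 0.436. In order of level only both cytokines at 24 h (20.0 ± 1.31 TPM) and at 6 h (10.8 ± 0.876 TPM) were neighbours without overlap.

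**Figure D2:**
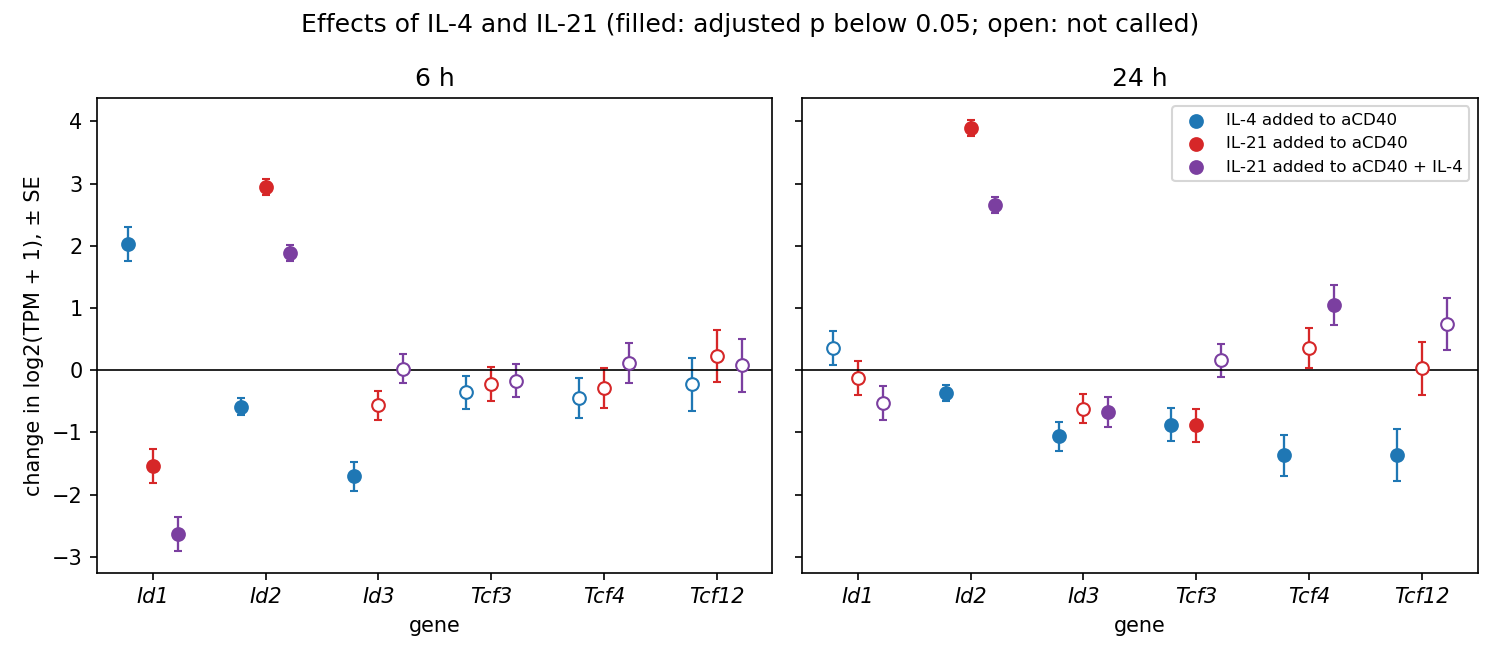
Log2 change of TPM + 1 (vertical axis, bars ± SE, n = 3 libraries a group) for the 6 genes (horizontal axis) when IL-4 was added to anti-CD40 (blue), IL-21 to anti-CD40 (red) or IL-21 to anti-CD40 and IL-4 (purple), at 6 h and 24 h; filled points were called. At 6 h the called points are all ID genes, from 2.95 for Id2 with IL-21 to -2.63 for Id1 with IL-21 and IL-4, and at 24 h points of E-protein genes are called too.

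At 6 h no E-protein gene was called for any cytokine in the limma fit, and none had an unadjusted p below 0.05. At 24 h each was called in at least 1 comparison, and most of those calls rest on the group with anti-CD40 and IL-4. The 3 libraries of that group differed among themselves: Tcf3 was at 87.5, 45.3 and 30.8 TPM, Tcf4 at 45.1, 23.3 and 9.54 TPM and Tcf12 at 13.7, 4.60 and 2.64 TPM. All 3 genes were highest in replicate 1, the library with the lower mitochondrial share. Errors and p-values come from a spread pooled over all groups and can understate the uncertainty of this group.

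Tcf3 encodes the E-proteins E12 and E47, which are required for early B cell development (minus strand, chr10:80409514-80433647). It was the most abundant of the 3 E-protein genes in 8 of the 9 groups. Naive cells held 99.5, 61.2 and 53.1 TPM, and anti-CD40 alone gave 83.0, 70.1 and 87.3 TPM at 6 h and 96.1, 75.8 and 107 TPM at 24 h. Those ranges overlap, and neither time was called against naive cells (0.21 ± 0.27, adjusted p = 0.619, and 0.41 ± 0.27, adjusted p = 0.271). Without naive replicate 1 and IL-4 replicate 1 the change at 24 h was 0.68 and was called (adjusted p = 0.00814), the lowest of 11 alternatives that reached 0.673. IL-21 at 24 h gave 54.2, 59.5 and 36.8 TPM, all below the libraries with anti-CD40 alone, and Tcf3 fell to 0.540 of their mean (-0.89 ± 0.27, adjusted p = 0.0183). Leaving out 1 library ended the call in 3 cases: anti-CD40 replicate 1 (adjusted p = 0.0564) or 3 (adjusted p = 0.0687) or IL-21 replicate 3 (-0.69, adjusted p = 0.0911). The lowest of the 10 alternatives was 1.80e-06, after rescaling, where the change was -1.14. IL-4 at 24 h gave a change of -0.87 ± 0.27 (adjusted p = 0.0166), with 1 library, replicate 1, inside the control range. That call ended without anti-CD40 replicate 3 (adjusted p = 0.0801), IL-4 replicate 2 (adjusted p = 0.0660) or IL-4 replicate 3 (-0.54, adjusted p = 0.153), and without IL-4 replicate 1 the change was -1.28 (adjusted p = 0.000139, and 2.12e-05, the lowest of the 11 alternatives, when naive replicate 1 was left out too).

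With IL-4 present at 24 h, adding IL-21 left Tcf3 at 57.4, 57.1 and 52.3 TPM, inside the range of 30.8 to 87.5 TPM without it (0.16 ± 0.27, adjusted p = 0.696). The direction of this difference depends on the processing, as it was -0.39 after rescaling (adjusted p = 0.0483) and 0.56 without IL-4 replicate 1 (adjusted p = 0.0509, and 0.0202 when naive replicate 1 was left out too), in a range of adjusted p up to 0.941 over 11 alternatives. The Tcf3 interaction at 24 h was 1.05 ± 0.38 (adjusted p = 0.114). It was called after rescaling (0.75, adjusted p = 0.0135), without IL-4 replicate 1 (1.45, adjusted p = 0.00301) and without the pair of naive replicate 1 and IL-4 replicate 1 (adjusted p = 0.000624), and the highest of 17 alternatives was 0.313. From 6 h to 24 h with IL-4, Tcf3 changed by -0.32 ± 0.27 (adjusted p = 0.431), and by -0.72 without IL-4 replicate 1 at 24 h (adjusted p = 0.0160, in a range of 0.00451 to 1.00). At 6 h Tcf3 was at 67.1, 59.8 and 59.6 TPM with IL-4, 69.8, 60.8 and 74.6 TPM with IL-21 and 62.0, 49.6 and 54.7 TPM with both. The libraries with IL-4 lay below those with anti-CD40 alone, and the change was -0.36 ± 0.27 (adjusted p = 0.736). In order of level only IL-4 at 6 h (62.2 ± 4.30 TPM) and both cytokines at 24 h (55.6 ± 2.83 TPM) were neighbours without overlap.

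Tcf4 encodes the E-protein E2-2, known as the driver of plasmacytoid dendritic cells and also active in B and plasma cells (plus strand, chr18:69343356-69689079). It was the E-protein gene that rose with time in culture. Naive cells held 24.1, 23.8 and 22.4 TPM, and anti-CD40 alone gave 25.2, 17.7 and 22.8 TPM at 6 h and 61.7, 45.8 and 68.4 TPM at 24 h. All 3 libraries at 24 h were above the others. Tcf4 rose 2.50-fold over naive cells at 24 h (1.27 ± 0.32, adjusted p = 0.00579) and by 1.37 ± 0.32 from 6 h to 24 h (adjusted p = 0.00348). With IL-21 it went from 20.1, 14.9 and 18.2 TPM at 6 h to 81.5, 95.6 and 52.7 TPM at 24 h (2.02 ± 0.32, adjusted p = 4.47e-05). With both cytokines it went from 19.1, 15.2 and 16.9 TPM to 47.8, 49.3 and 41.2 TPM (1.38 ± 0.32, adjusted p = 0.00235). These 3 rises from 6 h to 24 h were called in every alternative run. With IL-4 alone it went from 16.4, 15.5 and 15.2 TPM to the spread values of 9.54 to 45.1 TPM. This change of 0.45 ± 0.32 was not called (adjusted p = 0.342), and its direction turned without IL-4 replicate 1 at 24 h (-0.06, adjusted p = 0.897). It was called after rescaling (0.75, adjusted p = 0.0129) and without IL-4 replicate 3 at 24 h (1.00, adjusted p = 0.00808). Of the 6 markers of plasmacytoid dendritic cells, 3 were tested, and IL-21 with anti-CD40 raised 2 of them at both times. Cox6a2 rose by 1.48 ± 0.21 at 6 h (adjusted p = 3.03e-05) and 1.50 ± 0.21 at 24 h (adjusted p = 1.21e-05), and Lag3 by 0.90 ± 0.25 (adjusted p = 0.0200) and 1.54 ± 0.25 (adjusted p = 9.28e-05). With IL-21, Lag3 and Pacsin1 also rose from 6 h to 24 h, as Tcf4 did, and their part in the Tcf4 result was not tested. The defining Siglech reached at most 0.587 TPM in any library. The 6 markers summed to 9.42 to 12.0 TPM with anti-CD40 and 12.1 to 12.4 TPM with IL-21 at 24 h, against 9.03 to 17.3 TPM in naive cells, mostly from Pacsin1.

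IL-4 lowered Tcf4 at 24 h to 0.443 of the level with anti-CD40 alone (-1.37 ± 0.32, adjusted p = 0.00279). No library with IL-4 reached the control range, and the call held in all 11 alternatives (adjusted p up to 0.0243), at -1.88 without IL-4 replicate 1 and -0.81 at the other end of the alternatives. IL-21 added to anti-CD40 gave a difference of 0.36 ± 0.32 at 24 h (adjusted p = 0.457). Added to anti-CD40 and IL-4, it raised Tcf4 by 1.05 ± 0.32 (adjusted p = 0.0247), although IL-4 replicate 1, at 45.1 TPM, lay inside the range with both cytokines. This call ended after rescaling (0.51, adjusted p = 0.101), without a filter (adjusted p = 0.0547) and without IL-4 replicate 3 (0.49, adjusted p = 0.255), IL-4 replicate 2 (adjusted p = 0.0687), or replicate 1 (adjusted p = 0.0619) or 2 (adjusted p = 0.0763) of the group with both. The lowest of the 11 alternatives was 0.000102. The Tcf4 interaction at 24 h was 0.69 ± 0.46 (adjusted p = 0.417), and 1.20 without IL-4 replicate 1 (adjusted p = 0.0240, in a range of 0.0231 to 0.889). Between the times, the growth of the effect that IL-21 had beside IL-4 was 0.93 ± 0.46 (adjusted p = 0.263), and 1.44 without that library (adjusted p = 0.00641, in a range of 0.00574 to 0.715). At 6 h the cytokine differences were -0.44 to 0.11 and none was called. No neighbours in the order of the 9 groups, from 76.6 ± 21.9 TPM with IL-21 at 24 h to 15.7 ± 0.647 TPM with IL-4 at 6 h, were free of overlap.

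Tcf12 encodes the E-protein HEB, known best in T cell development (minus strand, chr9:71842688-72111871), and was the least abundant E-protein gene in all 9 group means. Naive cells held 10.9, 15.0 and 18.5 TPM. Anti-CD40 alone gave 7.13, 19.9 and 12.8 TPM at 6 h and 14.1, 13.5 and 22.4 TPM at 24 h, and IL-21 gave 11.8, 20.2 and 12.9 TPM and then 16.7, 25.8 and 10.5 TPM. All of these ranges overlap. The 1 call was the fall with IL-4 at 24 h, to 0.418 of the control mean (-1.37 ± 0.42, adjusted p = 0.0177), in which IL-4 replicate 1, at 13.7 TPM, lay inside the control range. It ended without anti-CD40 replicate 3 (adjusted p = 0.0959), IL-4 replicate 2 (adjusted p = 0.0735) or IL-4 replicate 3 (-0.93, adjusted p = 0.144), and without IL-4 replicate 1 it was -1.93 (adjusted p = 0.000466, and 0.000417, the lowest of 11 alternatives, when naive replicate 1 was left out too). Both cytokines gave 9.80, 10.2 and 13.2 TPM at 6 h and 6.22, 11.4 and 14.6 TPM at 24 h, and IL-4 at 6 h gave 8.67, 10.6 and 12.0 TPM. With IL-4 present, IL-21 gave a Tcf12 difference of 0.08 ± 0.42 at 6 h (adjusted p = 0.986) and 0.74 ± 0.42 at 24 h (adjusted p = 0.201). From 6 h to 24 h with IL-4, Tcf12 changed by -0.76 ± 0.42 (adjusted p = 0.201). Without IL-4 replicate 1 at 24 h the last 2 were called, at 1.31 (adjusted p = 0.00988, in a range of 0.00921 to 0.714) and -1.33 (adjusted p = 0.0100, in a range of 0.00922 to 0.691). From the highest group mean, 17.7 ± 7.68 TPM with IL-21 at 24 h, to the lowest, 6.97 ± 5.88 TPM with IL-4 at 24 h, all neighbours overlapped.

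At 24 h the libraries also differ as a whole. As listed, the median change over all tested genes was 0.23 for IL-21, 0.38 for IL-21 with IL-4, -0.31 for IL-4 and 0.25 for anti-CD40 against naive cells, and rescaling by the median of ratios brought these to 0.02, 0.00066, -0.02 and 0.01. Relative to the median gene, Id2 still rose with IL-21 at 24 h (3.63 with anti-CD40 and 2.16 with IL-4 after rescaling), and the IL-4 falls of Tcf3 (-0.42, adjusted p = 0.0197), Tcf4 (-0.94, adjusted p = 0.00227) and Tcf12 (-0.99, adjusted p = 0.0491) were smaller but called.

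TPM values are corrected for length, so the levels of the genes can be set beside each other within a library. The make-up of the ID transcripts differed between the cultures. Id3 led in naive cells (66.8 ± 7.39% of summed Id1, Id2 and Id3 TPM) and after anti-CD40 alone, with 63.5 ± 5.37% at 6 h and 91.4 ± 0.711% at 24 h. Id2 led wherever IL-21 was present, with 85.6 ± 1.86% at 6 h and 70.5 ± 2.83% at 24 h, and with both cytokines 79.2 ± 2.93% and 63.0 ± 2.53%. IL-4 at 6 h was the group with the most even mixture, at 38.0 ± 0.877% Id1, 32.9 ± 2.47% Id2 and 29.2 ± 2.03% Id3, and by 24 h Id3 held 86.0 ± 3.24%. Among E-protein transcripts, Tcf3 held 55.3 to 70.4% on average in 7 groups, but 49.4 ± 1.79% with both cytokines at 24 h and 35.1 ± 1.99% with IL-21 at 24 h, where Tcf4 led with 53.0 ± 0.429%.

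Summed over each family, ID transcripts outnumbered E-protein transcripts in 1 group as a whole. Their ratio was 1.85, 1.75 and 1.59 across the libraries with IL-21 at 6 h when ordered by size. With IL-21 at 24 h the ratio was 1.11 ± 0.323, from 0.884 to 1.48, so libraries fell on both sides of equality. In every other group the mean ratio was 0.413 to 0.715, and no library of those exceeded 0.824. The ratio with both cytokines at 6 h was 0.715 ± 0.0946, beside 0.675 ± 0.00760 in naive cells. These are transcript ratios, and protein was not analysed here.

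**Figure D3:**
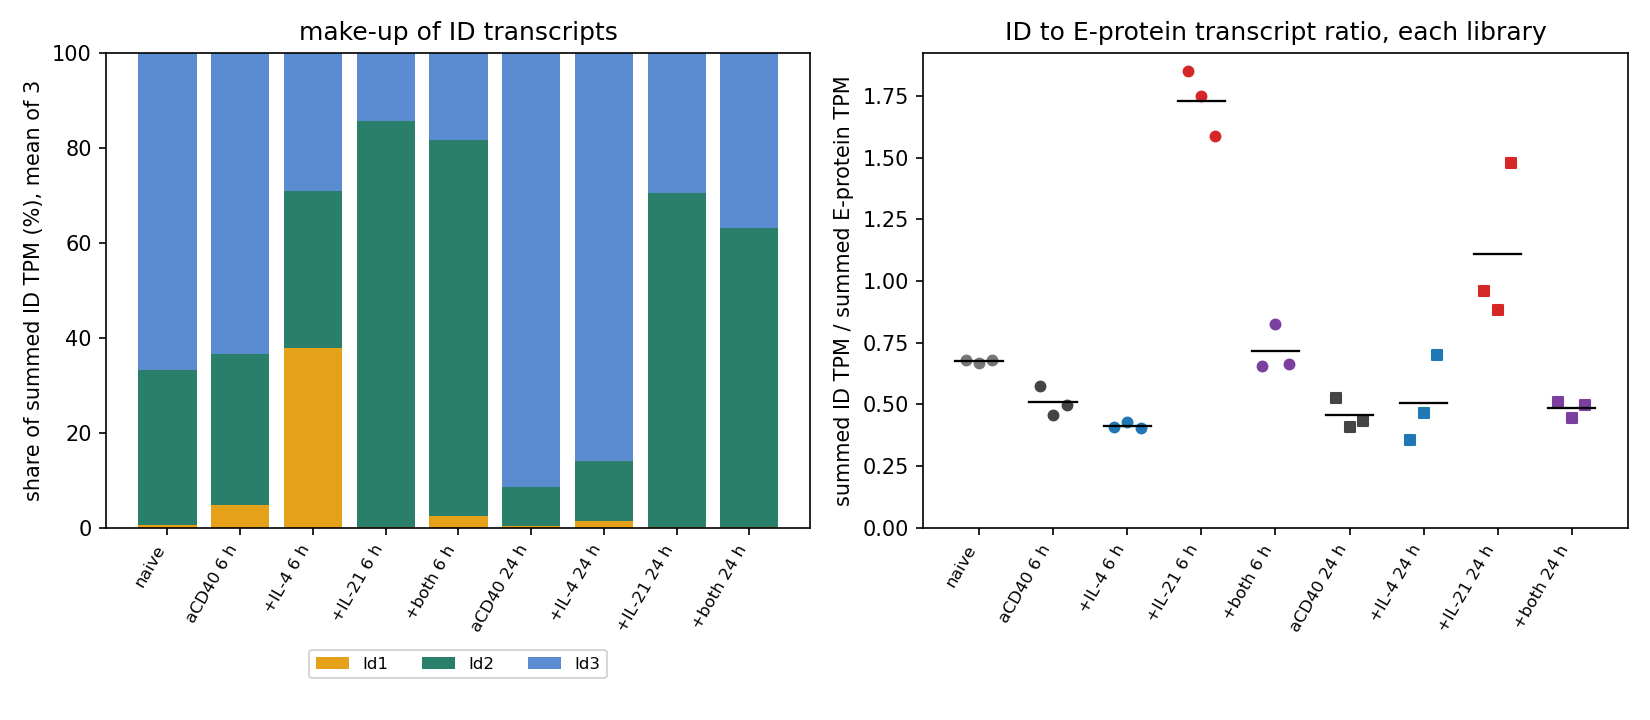
Left, share of each ID gene in the summed Id1, Id2 and Id3 TPM (vertical axis, %, stacked mean of 3 libraries) by group; right, summed ID TPM divided by summed Tcf3, Tcf4 and Tcf12 TPM in each library (points) with the group mean (line), axis from 0. Id2 makes up 63.0 to 85.6% of ID transcripts in the 4 groups with IL-21, and the ratio is above 1 in all 3 libraries with IL-21 at 6 h (1.59 to 1.85).

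Genes known to work with or under these factors were followed as lists drawn from general knowledge. For reading their counts, IL-21 with anti-CD40 raised 7.43% and lowered 4.68% of all tested genes at 6 h, and 17.8% and 6.33% at 24 h. With IL-4 present it raised 1.25% and lowered 1.28% at 6 h, and 21.8% and 2.39% at 24 h. IL-4 raised 1.65% and lowered 2.4% at 6 h, and 8.28% and 23.1% at 24 h. Against naive cells, anti-CD40 raised 16.6% and lowered 13.3% at 6 h, and 18.9% and 7.85% at 24 h. Of 8 E-protein cofactors all were tested. IL-21 with anti-CD40 raised 1 of them at 6 h, the corepressor Runx1t1 (0.89 ± 0.23, adjusted p = 0.0124), and at 24 h raised 2 and lowered 1. The LIM-domain bridging factor Lmo2 was among the raised at 24 h (0.86 ± 0.14, adjusted p = 8.30e-05), and the lowered gene was the corepressor Cbfa2t3 (-0.87 ± 0.28, adjusted p = 0.0286). Lmo2 was also raised by IL-4 at 6 h (1.31 ± 0.14, adjusted p = 1.25e-06), the 1 cofactor called in that comparison, and fell after anti-CD40 against naive cells at 6 h (-2.77 ± 0.14, adjusted p = 1.92e-12). At 24 h IL-4 raised 1 cofactor and lowered 3, and IL-21 added to anti-CD40 and IL-4 raised 4. The median change of the 8 cofactors was 0.14 with IL-21 at 6 h and 0.59 at 24 h, beside 0.10 and 0.23 over all tested genes. Of 10 helix-loop-helix partners, 2 were tested. Bhlha15, a plasma cell factor, rose with IL-21 at 24 h without IL-4 (0.78 ± 0.17, adjusted p = 0.00192) and with it (1.74 ± 0.17, adjusted p = 1.25e-07), and Lyl1 fell after anti-CD40 at 6 h against naive cells (-2.66 ± 0.29, adjusted p = 1.82e-07).

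E-protein targets known from B cells, 14 of 20 tested, moved in both directions with IL-21. With anti-CD40 at 6 h 3 rose and 6 fell, with a median of -0.44 against 0.10 over all genes. The falls were led by the B cell receptor chains Cd79a (-2.48 ± 0.53, adjusted p = 0.00284) and Cd79b (-2.05 ± 0.24, adjusted p = 2.36e-06), while the cytokine receptor gene Il7r rose (2.02 ± 0.16, adjusted p = 1.34e-08). Cd79a, Cd79b and Pax5 are also B cell markers here, and the summed B cell markers were 523 to 933 TPM with IL-21 at 6 h against 1554 to 2952 TPM with anti-CD40 alone. The part of this fall in the list's count was not tested. With IL-4 present, IL-21 at 6 h raised 1 and lowered 2. At 24 h it raised 3 and lowered 2 with anti-CD40, and raised 6 with IL-4, among them Foxo1 (1.86 ± 0.30, adjusted p = 0.000145), a transcription factor gene, and Vpreb3 (2.27 ± 0.29, adjusted p = 6.18e-06), a surrogate light chain family gene. IL-4 at 24 h lowered 8 targets and raised 1, with a median of -1.10 against -0.31 over all genes, and Foxo1 was among the lowered (-1.72 ± 0.30, adjusted p = 0.000182). The group with IL-4 at 24 h is on opposite sides of these last comparisons, so the rise and the fall share its libraries.

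The list of the BMP, TGF-beta and SMAD pathway had 13 of 23 genes tested. BMP signalling is a known inducer of ID genes, but not every listed gene belongs to it. IL-21 with anti-CD40 raised 1 at 6 h, the pseudoreceptor Bambi (1.07 ± 0.19, adjusted p = 0.000605), and called none at 24 h, when 1 had an unadjusted p below 0.05 in the limma fit. IL-4 called none of the 13 at 6 h (1 at an unadjusted p below 0.05) and lowered 6 at 24 h. Among the lowered were the receptor gene Tgfbr2 (-2.77 ± 0.62, adjusted p = 0.00177) and the SMAD corepressor gene Skil (-1.80 ± 0.26, adjusted p = 2.47e-05). Transcripts of these genes do not measure signalling, and the part of the pathway in the Id1 result was not tested. Of 6 EGR factors and partners, 5 were tested. EGR factors are known activators of Id3, while the partners include an EGR corepressor. IL-4 at 6 h raised Egr2 (2.95 ± 0.49, adjusted p = 0.000352) and called no other. IL-21 with anti-CD40 at 6 h also raised Egr2 (1.66 ± 0.49, adjusted p = 0.0268), and at 24 h 1 gene rose, the EGR corepressor Nab2 (1.46 ± 0.24, adjusted p = 8.41e-05). At 24 h IL-4 raised 1 of the list and lowered 2, and IL-21 added to anti-CD40 and IL-4 raised 3. Against naive cells, anti-CD40 lowered 3 at both times. The part of the EGR genes in the Id3 result was not tested. Of 6 genes of ID protein turnover, 5 were tested. Against naive cells, anti-CD40 raised 3 of them at 6 h and 4 at 24 h and lowered none, among them the deubiquitinase gene Usp1, whose product stabilizes ID proteins (1.00 ± 0.23 at 24 h, adjusted p = 0.00298). IL-4 at 24 h raised 2, Usp1 (0.90 ± 0.23, adjusted p = 0.00559) and Cops5 (0.82 ± 0.17, adjusted p = 0.000989), and lowered the ubiquitin ligase gene Smurf2 (-0.50 ± 0.16, adjusted p = 0.0188). IL-21 with anti-CD40 raised Usp1 at 24 h (0.76 ± 0.23, adjusted p = 0.0204) and called no other.

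Some calls of these listed genes ended when 1 library was left out. With IL-21 at 6 h, the Runx1t1 call ended without anti-CD40 replicate 1 (adjusted p = 0.0632) or IL-21 replicate 1 (adjusted p = 0.0523) or 2 (adjusted p = 0.0685). The Egr2 call ended without anti-CD40 replicate 1 (adjusted p = 0.0671) or 3 (adjusted p = 0.111) or IL-21 replicate 1 (adjusted p = 0.106) or 2 (adjusted p = 0.0511). With IL-21 at 24 h, the Cbfa2t3 call ended without anti-CD40 replicate 1 (adjusted p = 0.0631) or 3 (adjusted p = 0.125) or IL-21 replicate 2 (adjusted p = 0.0583) or 3 (adjusted p = 0.119). The Usp1 call ended without anti-CD40 replicate 2 (adjusted p = 0.109) or IL-21 replicate 1 (adjusted p = 0.104), and after rescaling (0.51, adjusted p = 0.123). The Smurf2 change with IL-4 was -0.06 after rescaling (adjusted p = 0.788), and its call ended when any 1 of 4 of the 6 libraries was left out (adjusted p = 0.0537 to 0.114).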

How the data were processed

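Polyadenylated RNA of 27 libraries in 9 groups was measured. The authors deposited 1 table of TPM values, made with Salmon 1.9.0 on GRCm38/mm10 per the submitters' processing notes. TPM keeps no depth, so depth is unknown, and the number of libraries limits the precision. Listed values summed to 766384 to 825365 per library, 0 pairs of libraries were identical, and 35301 IDs were named with GENCODE M21. Promoter windows came from RefSeq (GRCm38.p6).

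The 12147 genes reaching 1 TPM in 3 or more libraries were fitted as log2(TPM + 1) with limma 3.58.1 in R 4.3.3, with 1 mean per group, moderated variances with a trend and 18 residual degrees of freedom. This scale understates changes of low genes. P values were adjusted by Benjamini-Hochberg over all tested genes in each comparison. The fit was tested on simulated data. The text names all 6 genes and, by rule, at most the 3 called genes of each list with the largest change. The genes, lists and comparisons were chosen with earlier results of these data known.

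Replicate numbers are not explained by the labels. Deviations from group means of libraries with the same number correlated above 0.1 for every pair in 3 comparisons, all at 6 h: IL-21 without IL-4 (0.186 to 0.335), IL-21 with IL-4 (0.183 to 0.377) and IL-4 (0.107 to 0.382). There the replicate block changed no call of the 6 genes. Alternatives were a pseudocount of 0.1 TPM, no filter, median-of-ratios rescaling, the replicate block, each library left out in turn, and the pair of naive replicate 1 and replicate 1 with IL-4 at 24 h left out, chosen from an earlier account of these data; other libraries had mitochondrial shares below that of the second. The values of 1 listed gene are not reported here.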

Additional observations from a re-analysis of the deposited data

Results flagged for a closer look

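A difference between conditions in the effect of IL-21 was found for Id2 and Id1 by a test of the difference itself, on the values as listed. For Id2 the IL-21 effect was smaller with IL-4 than without it, by -1.06 at 6 h and -1.24 at 24 h on the log2 scale. It was larger at 24 h than at 6 h by 0.95 with anti-CD40 and by 0.77 with anti-CD40 and IL-4. For Id1 the same differences between times were 1.41 and 2.11, with negative effects at 6 h and levels under 1 TPM in every cultured library at 24 h. The calls between times depended on the processing. For Id2 they were kept in 15 of 16 alternatives with anti-CD40 and in 12 of 17 with IL-4. Both Id2 calls ended after rescaling in the limma fit (adjusted p = 0.0527 and 0.431). For Id1 they were kept in 6 of 16 with anti-CD40 and in 16 of 17 with IL-4. Other members gained such a call between times in the same fit. After rescaling these were Id3 beside IL-4 (-1.16, adjusted p = 0.000508) and Tcf3 with anti-CD40 (-0.82, adjusted p = 0.0113). As listed, neither was called (-0.69, adjusted p = 0.253, and -0.67, adjusted p = 0.424). Without naive replicate 1 and IL-4 24 h replicate 1, Tcf3 beside IL-4 was called (0.73, adjusted p = 0.0355), as was Tcf4.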

How the results depend on the processing

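Of the alternatives for the changes of the 6 genes other than leaving out single libraries, 383 kept direction and side of the threshold, 10 lost and 21 gained a call, and 12 turned direction; with single libraries left out these counts were 627, 39, 11 and 43. Only 1 of the 55 turned changes had been called, Id2 with IL-4 at 24 h (0.026 rescaled). The other turns, all uncalled before, were, after rescaling, Tcf12 in anti-CD40 against naive at 24 h (-0.16), IL-21 at 24 h (-0.21) and IL-21 between times (-0.13), Id3 in IL-21 with IL-4 at 6 h (-0.047), and Tcf3 in IL-21 with IL-4 at 24 h (-0.39, called), the growth of that effect (-0.15) and both cytokines between times (-0.15); without the pair of naive replicate 1 and IL-4 24 h replicate 1, Tcf12 against naive at 24 h (-0.035), the Id3 interaction at 24 h (0.20) and Tcf4 with IL-4 between times (-0.060); with the small pseudocount, the Id1 interaction at 6 h (0.35). The cause was not tested.

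Without a filter, members called moved from 1 to 2 against naive at 6 h and from 3 to 1 for IL-21 with IL-4 at 24 h. For the change of the IL-21 effect between times, without IL-4, they moved from 2 to 1. After rescaling they were 3 against naive at 6 h and 2 for the 24 h interaction. With the small pseudocount they were 1 for both changes of the IL-21 effect between times. Without the pair they were 4 against naive at 24 h and 3 for the 24 h interaction. They were then also 4 for the change of the IL-21 effect beside IL-4 between times. For the group with anti-CD40 and IL-4 between times they were 5. Genes called moved after rescaling to 551 for IL-21 with IL-4 at 6 h, 763 for IL-4 at 6 h and 1344 for the 24 h interaction. For the change of the IL-21 effect beside IL-4 between times they moved to 786. Without the pair they were 5890 for IL-21 with IL-4 at 24 h, 5979 for IL-4 at 24 h and 3015 for the 24 h interaction. They were then 3909 for the change of the IL-21 effect beside IL-4 between times. For the group with anti-CD40 and IL-4 between times they were 5089. Without a filter they were 3212 for IL-21 at 6 h. The 6 h interaction called 24 genes with the small pseudocount and 219 without a filter, against 50.

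With single libraries left out, members called ran from 1 to 2 against naive at 6 h, 1 to 3 for IL-21 at 24 h and with IL-4 at 24 h, 2 to 5 for IL-4 at 24 h, 1 to 3 for the 24 h interaction, 1 to 2 and 1 to 3 for the IL-21 effects between times and 3 to 5 for IL-4 between times. Changes that turned with a library left out were, against naive, Tcf4 (-0.21 to 0.031) and Tcf12 (-0.54 to 0.14) at 6 h and Tcf12 (-0.065 to 0.33) at 24 h; with IL-21, Tcf12 (-0.13 to 0.55 at 6 h, -0.27 to 0.34 at 24 h); with IL-21 and IL-4, Id3 (-0.039 to 0.061) and Tcf12 (-0.044 to 0.18) at 6 h and Tcf3 (-0.18 to 0.56) at 24 h; with IL-4 at 6 h, Tcf12 (-0.58 to 0.10); in the interactions, Tcf3 (-0.025 to 0.15) and Tcf12 (-0.47 to 0.20) at 6 h and Id3 (-0.24 to 0.20) at 24 h; and in the IL-21 effect between times, Id3 (-0.28 to 0.13) and Tcf12 (-0.52 to 0.16) without IL-4 and Tcf3 (-0.013 to 0.73) with it. Between times they were Tcf3 (-0.72 to 0.021) and Tcf4 (-0.060 to 1.00) with IL-4, Id1 (-0.32 to 0.17) and Tcf12 (-0.13 to 0.48) with IL-21, and Tcf3 (-0.067 to 0.091) and Tcf12 (-0.34 to 0.22) with both. None of these had been called. Genes called ran from 939 to 1262 for IL-21 at 6 h, 962 to 5634 for IL-21 with IL-4 at 24 h and 2409 to 5697 for IL-4 at 24 h. They ran from 21 to 43 and 501 to 2460 for the interactions. For the change of the IL-21 effect beside IL-4 between times they ran from 262 to 3408. For the group with anti-CD40 and IL-4 between times they ran from 1846 to 4822.

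With the replicate block, 1 call of the 6 genes differed, Id3 with IL-21 at 24 h (adjusted p = 0.0252 with the block). Deviations of libraries with the same number correlated there by -0.246 to 0.095. The 6 h interaction called 96 genes with the block, against 50 without it. Of the 27 libraries, 23 correlated best, on average over other groups, with their own number. The main fit has no term for this number. Unknown depth limits what the values under 1 TPM of Id1 and Id4 can show.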

Other observations

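Genes whose 9 group means of log2(TPM + 1) were most like those of a member are given as a description, over 8149 protein-coding genes with a group mean of at least 5 TPM, and the points share their libraries. For Id2 these were D1Ertd622e (r = 0.964), Tmem65 (r = 0.961) and Ier5l (r = 0.955), of which Ier5l ran from 0.0440 to 35.2 TPM between groups. Id1 was followed by Mgll (r = 0.878), Rasl11a (r = 0.869) and Rab21 (r = 0.835), and Id3 by Kiz (r = 0.978), Mat2b (r = 0.946) and Tcirg1 (r = 0.943). Tcf3 went most closely with Gbp2 (r = 0.962), Zfp959 (r = 0.940) and Gbp5 (r = 0.906), Gbp2 and Gbp5 being guanylate-binding protein genes known from interferon responses. Tcf4 went with Ptgr2 (r = 0.989), Extl3 (r = 0.987) and Acsf3 (r = 0.983), and Tcf12 with Rbl2 (r = 0.970), Lemd3 (r = 0.966) and Trim33 (r = 0.962). Among the members themselves the highest was Id3 with Tcf4 (r = 0.603). The lowest were Id1 with Id3 (r = -0.586) and Id1 with Tcf4 (r = -0.579), where Id1 stood clear of other groups only with IL-4 at 6 h.

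The T cell marker Thy1 was listed at 0 in naive replicates 1 and 3 and reached 69.7, 67.9 and 59.4 TPM with both cytokines at 24 h, where the T cell receptor complex gene Cd3e was at 0.327, 0.202 and 0.0972 TPM.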
